A study of Mus musculus with 8 samples.

Results

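Lysosomal proteases and lysosomal membrane proteins were examined through 8 genes, Ctsb, Ctss, Ctsd, Lgmn, Lamp1, Cd68, Psap and Grn, in maps of N4-acetylcytidine (ac4C), an acetylated cytosine in RNA. The genes were chosen from the same peak lists with earlier results in view, and a peak was assigned to a gene when it shared 1 or more bases, on the gene's strand, with a fixed span of the mouse genome (build mm39). In this way 68 of the 105252 peaks of all lists were assigned, which merged into 40 of the 75389 regions of the series. The cells were bone marrow-derived monocytes cultured with RANKL, the cytokine that drives osteoclast formation, for 3 days. They came from wild-type (WT) mice or from mice carrying a Nat10 conditional knockout (CKO). Nat10 encodes the enzyme that acetylates cytosine in RNA, and the study asked how its loss affects ac4C in osteoclast formation. Both groups received the same treatment. The sources used here do not give the promoter behind the conditional deletion, the ages or the number of mice. Loss of Nat10 itself was not checked here. RNA fragments precipitated with an ac4C antibody (4 IP samples) were compared by the authors with 4 input samples, giving 4 peak lists, WT 1, WT 2, CKO 1 and CKO 2. The sequencing depth behind the lists is unknown.

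Lysosomes are acidic organelles that degrade material delivered by endocytosis, phagocytosis and autophagy. Macrophages and osteoclasts are rich in them, and osteoclasts also release lysosomal enzymes and acid onto bone through secretory lysosomes. The cathepsins are the main lysosomal proteases, legumain trims other proteases into their mature forms, and heavily glycosylated proteins such as LAMP1 and CD68 line the lysosomal membrane. All 8 spans lie on the chromosome that the RefSeq gene table (GRCm38.p6) gives for the gene, and the gene's length in that table fits inside the span for all 8. The strand matched for the 7 genes whose strand was listed, all but Ctsb. Inside a span, the peak nearest to an edge stood 91 bases (Cd68) to 3412 bases (Lamp1) from it, and the nearest same-strand peak outside stood 1019 bases (Cd68) to 160217 bases (Ctsb) away. Exon positions in mm39 were not at hand, so peaks are placed by base position and by distance from the 5' end of the span, and whether they lie in coding sequence or a UTR is not known here.

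The 8 genes together carried more called peaks in both WT lists than in either CKO list. WT 1 held 20 and WT 2 held 18, whereas CKO 1 held 14 and CKO 2 held 16. The WT lists averaged 19.0 ± 1.41 peaks and the CKO lists 15.0 ± 1.41 (SD, n = 2 each), a gap of 4 peaks. An SD of 2 lists is too uncertain to judge this gap by. Per 10000 peaks of the list, the 4 values were 7.13, 7.24, 4.98 and 6.6 in the same order, again without overlap of the genotypes. How often the totals of other sets of 8 genes separate in this way was not tested. In bases, the peaks covered 1967 ± 246.1 of these spans in WT against 1325 ± 524.7 in the knockout (SD, n = 2 each), and there the genotypes overlapped, with 1793 bases in WT 1, 2141 in WT 2, 954 in CKO 1 and 1696 in CKO 2. With 2 lists against 2, an exact two-sided permutation test cannot go below p = 0.333, and the genes were picked with these data in view, so no test of genotype is given. The labels number the samples of a genotype 1 and 2, and nothing says whether these came from separate mice or cultures.

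The lower CKO total came from Ctss, Psap and Lamp1 and not from all 8 genes. Ctss and Psap were the 2 of the 8 genes in which both WT lists held more peaks than both CKO lists, and in 0 of the 8 did both CKO lists hold more. Over the 4541 same-strand loci of 7 or more peaks in the series (peaks chained across gaps of up to 5000 bases), both WT lists lay above both CKO lists in 9.09% and both CKO lists above both WT lists in 10.5%. Grn, with 1 peak in all, could not reach this size, which leaves 2 of 7 genes as the comparable count. A span held 1 to 4 chained loci, so the units are not quite alike. Without Ctss or without Lamp1, the CKO mean minus the WT mean was -1.5 peaks in place of -4.0, and without Psap it was -2.5. Without Ctsd, the gene with the largest surplus in CKO, it was -5.5.

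**Figure D1:**
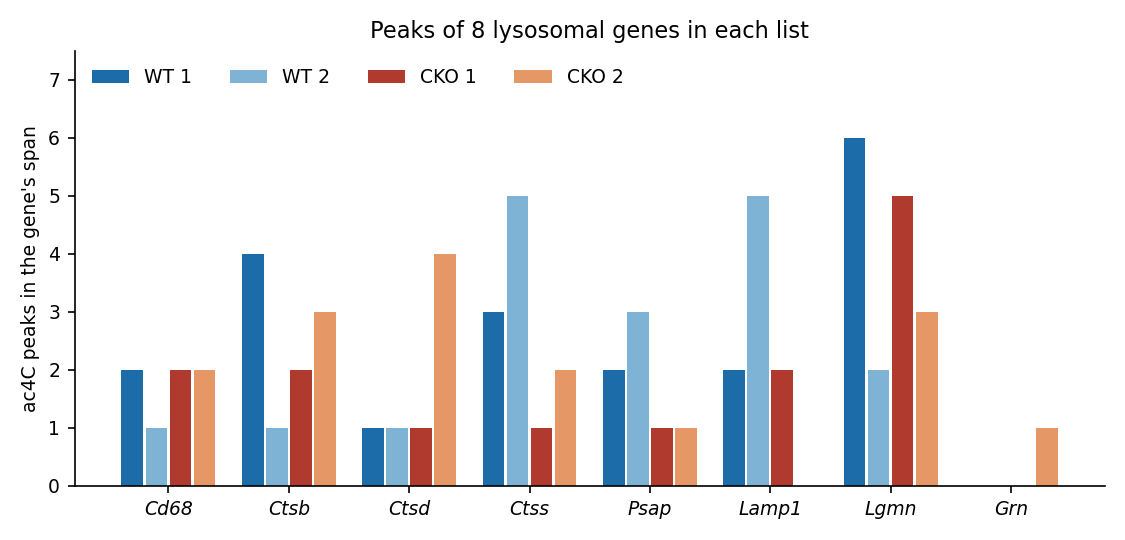
Bars give the number of ac4C peaks in the span of each gene (y axis) in each of the 4 lists (colours); an absent bar is 0. Both WT bars stand above both CKO bars for Ctss (3 and 5 against 1 and 2) and Psap (2 and 3 against 1 and 1), and Grn has a peak in CKO 2 alone.

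Ctss encodes cathepsin S, which stays active near neutral pH and processes the invariant chain of MHC class II. Its span on the plus strand of chromosome 3 held 3 peaks in WT 1, 5 in WT 2, 1 in CKO 1 and 2 in CKO 2, a WT mean of 4.0 ± 1.41 against a CKO mean of 1.5 ± 0.71 (SD, n = 2 each). A peak's strength is given below as the percentile of the authors' score within its own list, the share of that list's peaks with a score as high or lower, because each list was called separately and scores of different lists cannot be compared. By this measure all 11 Ctss peaks stood above the 80th percentile. The sources used here do not say what the score measures, so strength means this rank and not an amount of ac4C.

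Of the 6 Ctss regions, 2 were held by 3 lists. The region at bases 95452644 to 95452773 was held by both WT lists and CKO 1, at percentiles 86.6, 99.5 and 91.2. The region at bases 95457364 to 95457393 was held by both WT lists and CKO 2, at percentiles 99.5, 99.9 and 82.8. Each genotype therefore marked both places, with 1 CKO list at each. A further region at 95446032 to 95446065 was shared by WT 2 (98.6) and CKO 2 (97.9). The other 3 regions were held by a WT list alone: WT 1 at 95450324 to 95450436 (percentile 99.9), and WT 2 at 95436745 to 95436851 (93.8) and at 95463397 to 95463428 (98.9). No Ctss region was held by both WT lists and neither CKO list, although the peak numbers of the genotypes did not overlap.

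Ctsb encodes cathepsin B, a cysteine protease with both endopeptidase and carboxypeptidase activity. On the plus strand of chromosome 14, its span held 4 peaks in WT 1, 1 in WT 2, 2 in CKO 1 and 3 in CKO 2, and the genotypes had the same mean (WT 2.5 ± 2.12, CKO 2.5 ± 0.71; SD, n = 2 each). The places that recurred between lists were those of low percentile. Near the 5' end of the span, the region at 63360050 to 63360652 was held by WT 1, WT 2 and CKO 2 at percentiles 11.4, 44.0 and 35.5. The next, at 63360933 to 63361231, was held by WT 1, CKO 1 and CKO 2 at percentiles 12.2, 33.2 and 26.3, and its 3 peaks formed a chain with 0 bases common to all of them. The strongest Ctsb peak, at 63373856 to 63373891, ranked 16 of the 28065 peaks of WT 1, was 36 bases long and had no counterpart in the other lists. Single-list peaks also stood at 63371414 to 63371483 in CKO 1 (percentile 80.3), at 63376448 to 63376482 in WT 1 (72.4) and at 63381837 to 63382036 in CKO 2 (53.6).

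Ctsd encodes cathepsin D, the main aspartic protease of the lysosome. On the minus strand of chromosome 7, its span held 1 peak in each of WT 1, WT 2 and CKO 1 and 4 in CKO 2, so its CKO mean of 2.5 ± 2.12 against 1.0 ± 0.0 in WT (SD, n = 2 each) rested on CKO 2. The 1 recurring place, at 141939251 to 141939355, was among the strongest of 2 lists, ranking 120 in WT 1 and 82 of 28087 in CKO 1. In CKO 2 the peak there was 14 bases long, at percentile 55.2. WT 2 had no peak there and held its only Ctsd peak at 141930767 to 141930907, at percentile 23.4. The remaining CKO 2 peaks, at 141929838 to 141930051, 141936329 to 141936404 and 141937176 to 141937278, stood at percentiles 96.5, 68.5 and 82.7 and were in no other list.

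Lgmn encodes legumain, the asparaginyl endopeptidase that cleaves cathepsin precursors. Its span on the minus strand of chromosome 12 held 6 peaks in WT 1, 2 in WT 2, 5 in CKO 1 and 3 in CKO 2, with the same mean in both genotypes (WT 4.0 ± 2.83, CKO 4.0 ± 1.41; SD, n = 2 each). WT 1 and CKO 1 held more Lgmn peaks than WT 2 and CKO 2, so the lists did not order by genotype. Of the 9 Lgmn regions, 8 lay 27179 bases or more from the 5' end of the 47000-base span, and the other lay 16972 bases from it.

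The most exactly repeated Lgmn peak was the 42-base stretch at 102372095 to 102372136, called with the same start and the same end in WT 1, CKO 1 and CKO 2 at percentiles 83.5, 82.5 and 70.0. The region nearest the 3' end, at 102360534 to 102360871, was held by WT 1, WT 2 and CKO 2 at 91.7, 85.0 and 68.7. WT 1 and CKO 1 also shared the regions at 102370531 to 102370604 (98.1 and 96.6) and at 102369748 to 102369761 (42.9 and 45.2). The region at 102362043 to 102362073 was held by both CKO lists alone, at percentiles 84.9 (CKO 1) and 82.0 (CKO 2), and 1171 bases separated it from the nearest WT peak. The highest-ranked Lgmn region, at 102364486 to 102364642, was held by WT 1 alone at percentile 98.4. WT 1 also had a peak at 102379782 to 102379821 (88.0), WT 2 at 102389923 to 102390028 (94.9) and CKO 1 at 102361119 to 102361168 (16.6).

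**Figure D2:**
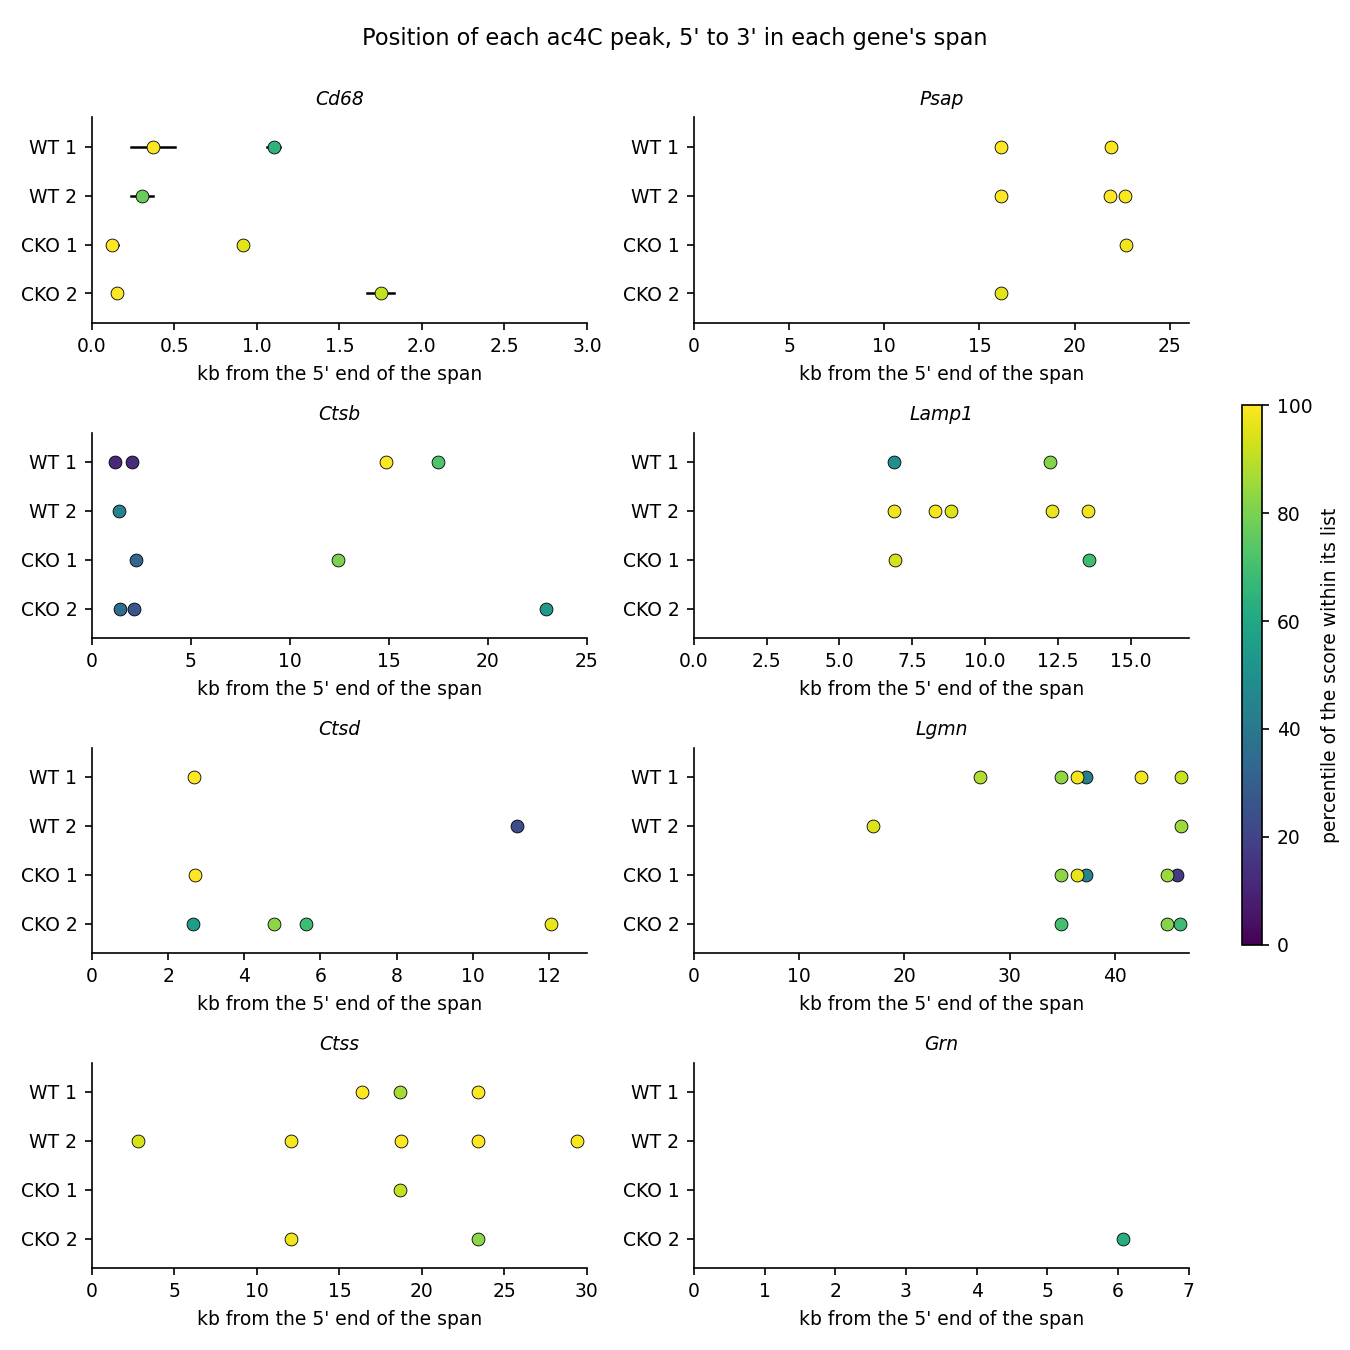
Each point is 1 peak, placed by its distance in kb from the 5' end of the gene's span (x axis) in each of the 4 lists (rows); colour gives the percentile of the authors' score within the list, and a black line the peak's width where it exceeds the point. All but 1 of the Lgmn regions stand 27179 bases or more from the 5' end, the recurring Ctsb peaks near the 5' end are of low percentile, and the CKO 2 row of Lamp1 is empty.

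Lamp1 encodes a major glycoprotein of the lysosomal membrane. The Lamp1 span, on the plus strand of chromosome 8, held 2 peaks in WT 1, 5 in WT 2, 2 in CKO 1 and 0 in CKO 2. The WT mean was 3.5 ± 2.12 and the CKO mean 1.0 ± 1.41 (SD, n = 2 each), and the genotypes met at 2 peaks. The region at 13215849 to 13215947 was held by WT 1, WT 2 and CKO 1 at percentiles 49.6, 97.9 and 93.2, so its rank was middling in WT 1 and high in the other lists that held it. The region at 13221205 to 13221377 was held by both WT lists alone, at 81.5 and 96.8, and the nearest CKO peak stood 1163 bases away. WT 2 and CKO 1 shared the region at 13222541 to 13222588, at 97.2 and 69.1. WT 2 alone held peaks at 13217158 to 13217375 (98.2, the highest-ranked Lamp1 region) and 13217807 to 13217845 (94.6). An empty list here means that no peak of that list reached the deposited selection, not that the RNA carried no ac4C.

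Cd68 encodes a mucin-like membrane glycoprotein of late endosomes and lysosomes, widely used as a macrophage marker. The Cd68 span, on the minus strand of chromosome 11, held 2 peaks in WT 1, 1 in WT 2, 2 in CKO 1 and 2 in CKO 2, and peak numbers overlapped between the genotypes (WT 1.5 ± 0.71, CKO 2.0 ± 0.0; SD, n = 2 each). All 4 lists had a peak near the 5' end of the span, but at 2 neighbouring places that divided by genotype. The WT peaks shared their 5' edge, at base 69556762, with 266 bases in WT 1 (percentile 99.9, rank 27) and 130 bases in WT 2 (percentile 77.1). The CKO peaks shared their 3' edge, at base 69556846, with 64 bases in CKO 1 (rank 8 of 28087) and 3 bases in CKO 2 (rank 29 of 24249). Only 83 bases lay between the WT and the CKO region. With peaks merged across gaps of up to 100 bases, the stretch from 69556497 to 69556909 became 1 region of 413 bases held by all 4 lists, so the division by genotype holds only at the finer scale. Other Cd68 peaks were in 1 list each, at 69555861 to 69555939 in WT 1 (64.5), 69556073 to 69556092 in CKO 1 (95.5) and 69555169 to 69555330 in CKO 2 (91.2).

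Psap encodes prosaposin, the precursor of the saposins that help lysosomal hydrolases act on sphingolipids. Its span on the plus strand of chromosome 10 held 2 peaks in WT 1, 3 in WT 2 and 1 in each CKO list, a WT mean of 2.5 ± 0.71 against a CKO mean of 1.0 ± 0.0 (SD, n = 2 each). All 7 Psap peaks stood at percentile 96.0 or higher, and each of its 3 regions was held by 2 or more lists. The region at 60129129 to 60129148 was held by WT 1 (99.7), WT 2 (99.3) and CKO 2 (96.0). The region at 60134877 to 60134902 was held by both WT lists alone, at 98.9 and 99.7, with the nearest CKO peak 716 bases away. The region at 60135558 to 60135837 was held by WT 2 (99) and CKO 1 (98.2).

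Grn encodes progranulin, a secreted precursor that reaches lysosomes and is cleaved there into granulins. Its span on the plus strand of chromosome 11 held 1 peak, of 14 bases at 102327061 to 102327074 in CKO 2 (percentile 62.3), and 0 in WT 1, WT 2 and CKO 1. The data therefore give almost no called ac4C signal for Grn in any list.

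The peaks of these genes ranked high in every list. Their median percentile was 89.9 in WT 1, 97.5 in WT 2, 88.1 in CKO 1 and 76.0 in CKO 2, where the median of all peaks of a list is 50 by construction. The mean of the 4 medians was 87.9 ± 8.9 (SD, n = 4 lists). Both WT medians lay above both CKO medians, but those of WT 1 (89.9) and CKO 1 (88.1) were close. How often the medians of other sets of genes order in this way was not tested. Of the 68 peaks, 36 (52.9%) stood above the 90th percentile and 13 (19.1%) above the 99th, and 11 lay below the 50th. The share above the 90th percentile was 50% in WT 1, 77.8% in WT 2, 50% in CKO 1 and 31.2% in CKO 2. Psap and Ctss were high in all lists that held them, and Ctsb had both the peak ranked 16 in WT 1 and 6 of the 11 below the 50th percentile. Since the genes were chosen with these lists in view, high ranks are a description of the choice.

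**Figure D3:**
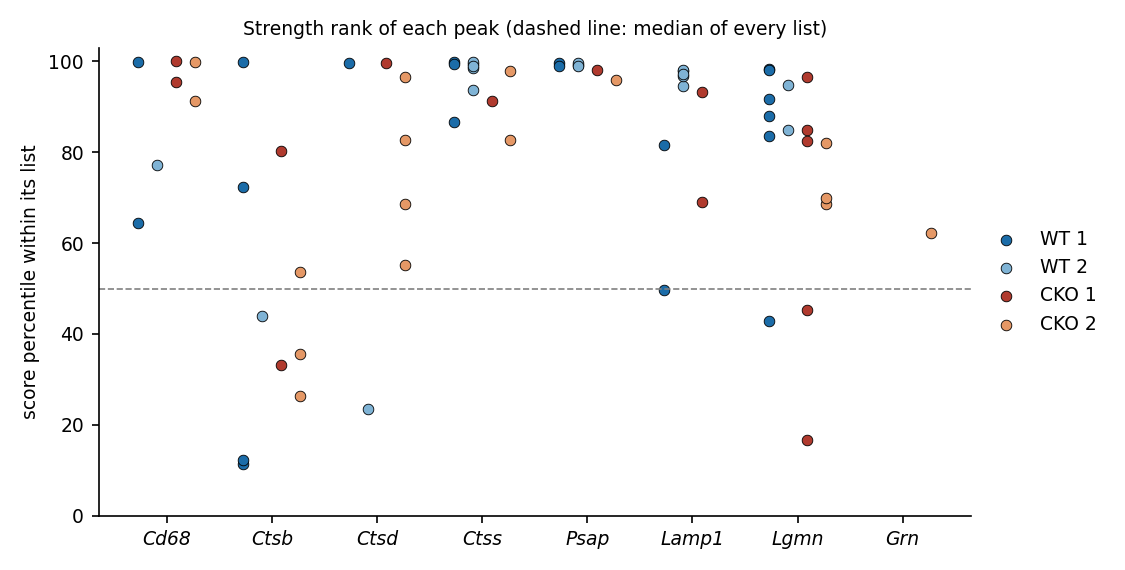
Points give the percentile of each peak's score within its own list (y axis, 0 to 100) for each gene and list (colours); the dashed line marks the 50th percentile, the median of every list. All Psap points stand at 96.0 or higher, and 11 of the 68 points, from Ctsb, Ctsd, Lamp1 and Lgmn, lie below the line.

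Places held by 3 lists made up a larger share of the regions in these genes than over the series. None was held by all 4 lists, a pattern that was rare over the series too. Of the 40 regions, 21 (52.5%) were held by 1 list, 10 (25%) by 2, 9 (22.5%) by 3 and 0 by 4. Over all regions 7.21% were held by 3 or more lists and 0.964% by all 4. The 9 regions of 3 lists came from 6 genes, Ctsb, Ctss, Lgmn, Ctsd, Psap and Lamp1. The list without a peak was CKO 1 at 4 of them, WT 2 at 3 and CKO 2 at 2, and WT 1 had a peak in all 9. The Ctsb region at 63360933 to 63361231 is counted here although 0 bases were common to its 3 peaks. Because the genes were chosen with the peaks in view and their peaks rank high, these shares are not set against the background by a test.

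**Figure D4:**
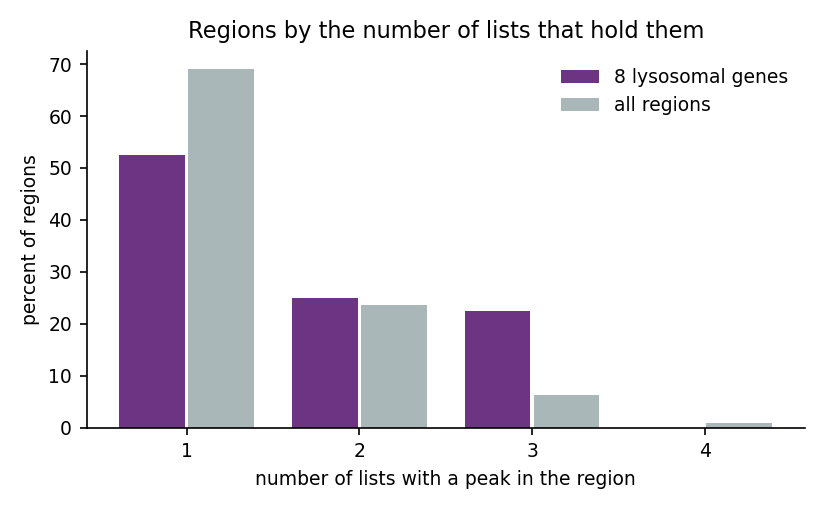
Bars give the percentage of regions (y axis) held by 1, 2, 3 or 4 lists (x axis) for the 40 regions of the 8 lysosomal genes and for all 75389 regions. Regions of 3 lists make up 22.5% of the former and 6.24% of the latter, and regions of 4 lists 0 and 0.964%.

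Regions that divided by genotype were few in these genes, as they were over the series. Peaks of WT 1 and WT 2 without any CKO peak marked 3 of the 40 regions (in Cd68, Psap and Lamp1), where 4.26% of all regions in the series have this pattern. Peaks of CKO 1 and CKO 2 without any WT peak marked 2 of the 40 (in Cd68 and Lgmn), where the series has 3.64%. The other 5 of the 10 regions of 2 lists joined a WT with a CKO list (2 in Lgmn and 1 each in Ctss, Psap and Lamp1). Over the series, 66.6% of the 17842 regions of 2 lists were of this mixed kind, and 4 of the 6 pairs of lists are of different genotype. Leaving out a list loosens the rule for a region, so these counts can then only rise or stay. Without WT 1 or WT 2 the WT-only count was 9 each time, and without CKO 1 or CKO 2 it was 5 or 7. The CKO-only count was 8 without CKO 1, 6 without CKO 2, 5 without WT 1 and 2 without WT 2.

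Many of the peaks began or ended at exactly the same base in different lists. Of the 68 peaks, 39 (57.4%) shared a start or an end, to the base and on the same strand, with a peak of another list, against 36.5% of all 105252 peaks. Such peaks numbered 8 of 11 in Ctss, 12 of 16 in Lgmn, 7 of 9 in Lamp1, 5 of 7 in Psap, 4 of 7 in Cd68 and 3 of 7 in Ctsd, and 0 of 10 in Ctsb. The shared edge was mostly the 5' one in the direction of transcription, with 37 peaks (54.4%) sharing a 5' edge and 7 (10.3%) a 3' edge. All peaks of the series showed the same lean, at 33.7% and 9.1%. A peak in a region held by 1 list cannot share an edge. Such regions made up 52.5% of the regions in these genes and 69.1% over the series. The part of this in the larger share of 57.4% was not tested, and the genes were chosen with these lists in view.

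The 9 regions of 3 lists included 7 in which all 3 peaks had an edge in common. The 3 Ctsd peaks shared the base 141939355, their 5' edge on the minus strand, with widths from 14 to 105 bases. The Psap peaks shared the start base 60129129 with widths of 9 to 20 bases. Peaks at the Ctss site starting at 95457364 were 29 to 30 bases long, and those at the Lamp1 site starting at 13215849 were 68 to 99 bases long. Peaks of these genes were also narrow, with a median width of 67.0 bases in WT 1, 106.5 in WT 2, 57.5 in CKO 1 and 59.0 in CKO 2, where the medians of all peaks were 113.0, 110.0, 115.0 and 120.0. Peaks under 50 bases long made up 40% of the peaks of these genes in WT 1, 38.9% in WT 2, 35.7% in CKO 1 and 50% in CKO 2, where the shares over the whole lists were 23.7%, 20.4%, 22.8% and 22.7%. The sources used here do not say how the authors restricted peaks to mRNA, and the part of that step in these edges was not tested.

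**Figure D5:**
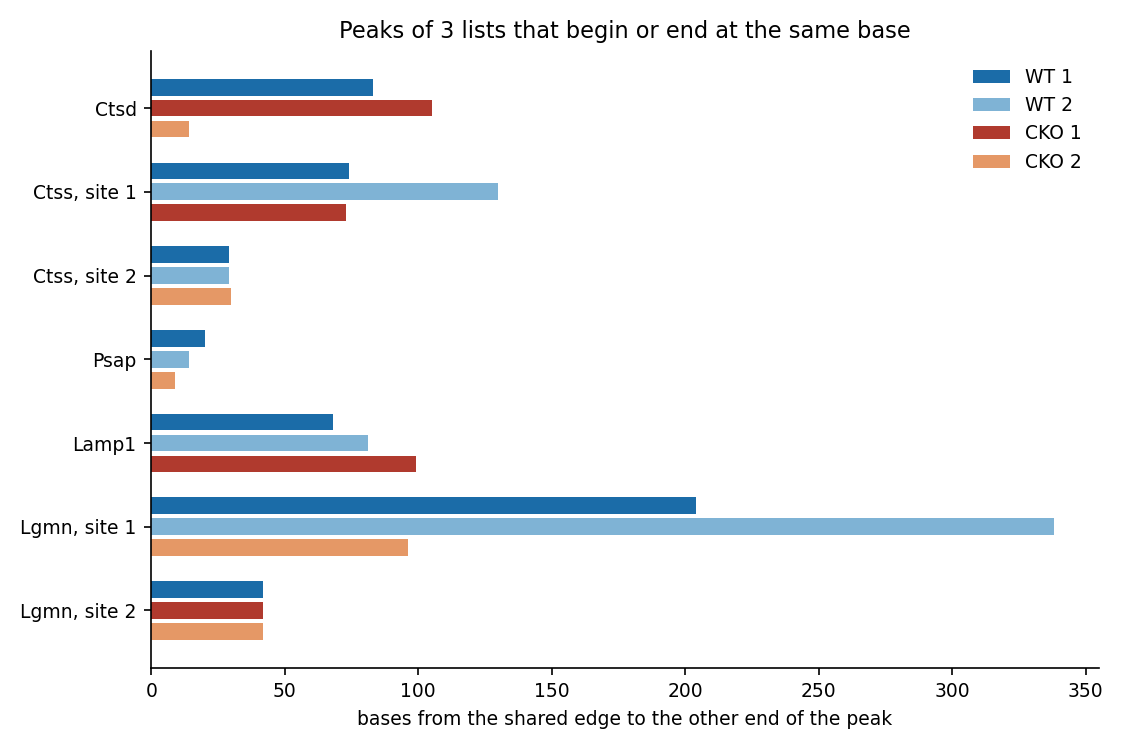
Bars run from the base at which the peaks of 3 lists begin or end together to the other end of each peak (x axis, bases), for the 7 regions of 3 lists with such an edge; colours give the list. Widths are equal at 1 Lgmn site (42 bases in each list) and run from 96 to 338 bases at the other.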

How the data were processed

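The deposited files are 4 peak lists, 1 for each IP sample against its input, with chromosome, start, end, peak name, score and strand. Tools in the submitters' processing notes are MACS2 2.2.7.1, STAR 2.7.8a and fastp 0.20.1, with mm39 as the build. Per the labels, the lists hold MACS2 peaks of IP against input. The peak names show 1 library per list. The deposited score of a peak comes from the authors. The sources used here do not say which MACS2 output the score is or how the restriction to mRNA was made. The lowest score is 5.0, and whether weaker calls were left out is not known here. Read totals are not in the lists, so a peak has no interval here.

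Starts and ends were read as counting from 0 and are printed counting from 1. Same-strand peaks sharing 1 or more bases were merged into regions with Python 3.11.15 and numpy 2.4.6, and the merging was tested on simulated data. All 8 genes are named, with every region of theirs. No gene-level test was run. The members and lists were chosen with earlier results of these data known. A planned list of other lysosomal genes and the markers of cell types need an mm39 annotation and were not analysed here. For the same reason no sequence is printed.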

Additional observations from a re-analysis of the deposited data

How the results depend on the processing

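The CKO mean, lower by 4 peaks, stayed below the WT mean in all settings tried, listed here. Some of these settings could not have reversed it. Both WT totals exceed both CKO totals, so leaving out 1 list keeps the sign. The replicate block equals the difference of the means by arithmetic. The nearest peak outside any span stood 1019 bases away, so widening by 1000 bases could add none. The single lists did not stay apart by genotype in all settings. Their totals overlapped or met among peaks of 200 bases or more, and without Ctss, Psap or Lamp1. The CKO mean minus the WT mean was -3.5 in the top 50% of each list and -1.0 among peaks of 200 bases or more. It was -1.39 per 10000 peaks of a list, -4.0 with spans widened by 1000 bases and -5.0 to -3.0 with 1 list left out. With the replicate block it was -4.0, from pair differences of -6 and -2; the shared numbers are not known to pair the samples. Leaving out 1 gene, a choice made after the data were seen, gave -1.5 (Ctss or Lamp1), -2.5 (Psap) and -5.5 (Ctsd), and -4.5 to -4.0 for the other 4. WT-only regions (3) and CKO-only regions (2) came to 1 and 0 among peaks of 200 bases or more, and to 2 and 1 when merged across 100 bases, where 1 region (Cd68) was held by all 4 lists in place of 0. With 1 list left out they ranged from 5 to 9 and from 2 to 8, and regions in all remaining lists from 0 to 4. Within replicate numbers (replicate block) they averaged 13.5 and 9.5, because 1 list then stands for each genotype. The top 50% and a 50% overlap left these counts as they were, as did the wider spans, which could add no peak. The mean median percentile of 87.9 was 84.7 to 91.8 with 1 list left out and 33.7 when peaks were ranked by width in place of score. Peak names did not repeat, so counting calls by name changes nothing. The unknown depth limits all counts: an absent peak cannot be told from one that was undersampled.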

Other observations

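Counted in bases, the pairs of lists of 1 genotype were both the most and the least alike. Over the 8 spans, the 2 WT lists shared 665 of the 3269 bases covered by either (a Jaccard index of 0.203), the highest of the 6 pairs, and the 2 CKO lists shared 102 of 2548 (0.04), the lowest. Pairs of different genotype lay between: WT 2 had an index of 0.0894 with CKO 1 and 0.171 with CKO 2, and WT 1 had 0.132 with CKO 1 and 0.125 with CKO 2. CKO 1 covered the fewest bases of these spans (954), which limits how high its indices can be. No index over the whole lists is set beside these, so whether the order is particular to these genes is not known here. In 6 of the 8 genes every list held a peak, the exceptions being Lamp1 and Grn.

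Elsewhere in the series, the exact peak numbers of Cd68 in the 4 lists (2, 1, 2 and 2) recurred at 57 of 27028 loci, those of Psap (2, 3, 1 and 1) at 25, those of Ctsb (4, 1, 2 and 3) at 8, those of Ctsd (1, 1, 1 and 4) and of Ctss (3, 5, 1 and 2) at 5 each, and those of Lgmn (6, 2, 5 and 3) at 1. The pattern of Grn, a lone peak in CKO 2, recurred at 1806. No locus had those of Lamp1 (2, 5, 2 and 0). The peak numbers of the genes are per span, whereas those elsewhere are per chained locus. The spans of Lgmn (4 loci), Ctsb and Ctss (3 each) and Ctsd and Psap (2 each) took in more than 1 locus. For these genes the units are not alike, and the recurrence says little about how rare their numbers are.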
